A study of Homo sapiens with 4 samples.

Results

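Imprinted genes were examined in H9 cells. This established line derives from a human embryo, is pluripotent and was grown in mTeSR medium. The set held 10 genes chosen by name, H19, IGF2, MEG3, DLK1, SNRPN, PEG3, PEG10, MEST, NNAT and CDKN1C, out of 60671 genes in the deposited table, and each symbol matched 1 row. Poly(A)-selected RNA had been sequenced in 4 libraries. The control group had 2 libraries, labelled only as control. The second group had 2 libraries of cells whose CFIm25 gene, NUDT21, had been edited and which re-expressed 3Flag-CFIm25, and it is called KO+OE here. The study describes the rescue as a lentiviral construct put back into a mutant clone that keeps a shortened CFIm25 protein at a low level, so KO+OE rests on a single clone. CFIm25 belongs to cleavage factor I, which binds near the sites where new transcripts are cut and polyadenylated. Edited cells that lack the construct were not analysed here. The question put to the data was whether the imprinted transcripts of the re-expressing line differed from those of control cells.

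An imprinted gene is transcribed mainly from the copy inherited from 1 parent. The choice is set by DNA methylation that is laid down in the egg or the sperm at imprinting control regions and is kept through cell division. Imprinted genes sit in clusters, or domains, in which 1 control region governs several coding and noncoding transcripts. Many of them act on growth, the placenta and metabolism, and their dosage is watched in pluripotent stem cells because imprints can be lost in culture. Of the 10 genes, 7 are known as expressed from the paternal copy and 3, H19, MEG3 and CDKN1C, from the maternal copy. The table gives total RNA of a gene, so the alleles were not told apart in these data.

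The 10 genes lay on 6 chromosomes (RefSeq, GRCh38.p14, the build named in the labels as hg38). H19 (chr11:1995176-2001266), IGF2 (chr11:2129117-2149566) and CDKN1C (chr11:2883218-2885775) share a region of chromosome 11, with 127.8 kb between H19 and IGF2 and 733.7 kb between IGF2 and CDKN1C. DLK1 (chr14:100726892-100738224) and MEG3 (chr14:100826108-100861026) were 87.9 kb apart. PEG10 (chr7:94656325-94669695) and MEST (chr7:130486175-130506465) lie far apart on chromosome 7. SNRPN was at chr15:24823637-24978723, PEG3 at chr19:56810082-56840726 and NNAT at chr20:37521250-37523690. RefSeq lists 8 of the genes as protein-coding and 2, H19 and MEG3, as long noncoding RNAs.

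Start-site sequences were found in the RefSeq promoter table for 4 of the 10 genes. All 4 are shown, with 1 window each. Their levels, described below, run from SNRPN, the highest, through MEST, to H19 and MEG3, whose means were under 1 TPM. Each window is the 250 bases before a transcription start, read 5′ to 3′ along the gene. Capitals mark TGCCGC or its reverse complement GCGGCA, the letters recognised by ZFP57, a zinc finger protein that binds methylated imprinting control regions. The windows are chr15:24954737-24954986 on the plus strand for SNRPN, chr7:130491835-130492084 on the plus strand for MEST, chr14:100825858-100826107 on the plus strand for MEG3 and chr11:2001267-2001516 on the minus strand for H19.
SNRPN: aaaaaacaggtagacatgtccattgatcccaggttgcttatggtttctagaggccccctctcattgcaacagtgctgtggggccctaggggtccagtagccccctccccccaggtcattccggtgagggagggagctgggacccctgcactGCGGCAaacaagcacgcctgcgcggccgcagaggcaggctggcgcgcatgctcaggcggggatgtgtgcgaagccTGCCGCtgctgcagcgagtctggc
MEST: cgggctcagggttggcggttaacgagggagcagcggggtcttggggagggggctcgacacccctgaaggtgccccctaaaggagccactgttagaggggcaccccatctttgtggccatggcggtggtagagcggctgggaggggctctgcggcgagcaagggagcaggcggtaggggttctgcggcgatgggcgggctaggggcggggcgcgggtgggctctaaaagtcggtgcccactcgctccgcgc
MEG3: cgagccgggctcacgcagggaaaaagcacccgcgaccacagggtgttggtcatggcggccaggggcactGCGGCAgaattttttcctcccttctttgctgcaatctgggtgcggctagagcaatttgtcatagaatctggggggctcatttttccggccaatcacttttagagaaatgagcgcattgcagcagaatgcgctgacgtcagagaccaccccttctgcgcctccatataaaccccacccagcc
H19: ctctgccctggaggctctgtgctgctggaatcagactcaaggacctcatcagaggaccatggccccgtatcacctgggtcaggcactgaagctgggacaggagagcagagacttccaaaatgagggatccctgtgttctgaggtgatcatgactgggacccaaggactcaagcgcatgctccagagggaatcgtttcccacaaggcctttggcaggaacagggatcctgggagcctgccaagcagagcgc
The SNRPN window shown held the motif 2 times and the MEG3 window 1 time, and the MEST and H19 windows shown held none. No fixed rule set which window of a gene is shown, and the other SNRPN windows held the motif 0, 0 and 1 times. The motif was present in 12.7% of 35116 such windows over all genes in the table. CpG dinucleotides, the targets of methylation, numbered 12 in the SNRPN window, 20 in that of MEST, 13 in that of MEG3 and 4 in that of H19, against a median of 11 over all windows. SNRPN has 4 start windows in the table, MEST 5, MEG3 3 and H19 1, and 6 of these 13 held the motif, among them another MEST window with 20 CpG. The 3 MEG3 windows overlap and hold the same motif, so the windows are not separate sites and their count is not set against the share over all windows. The match describes letters in the reference and says nothing of binding or methylation in these cells.

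The deposited values were read as TPM, a transcript abundance scaled to a fixed total, which is corrected for gene length and can be compared between genes. The libraries summed to between 986853 and 987078 TPM, and genes of the mitochondrial genome took 21.0% to 22.1% of each. Read counts were not analysed here, so depth is unknown, and precision comes from the spread between replicates, of which each group had 2. Nothing in the labels says whether replicates came from separate cultures, so the p-values measure only the spread between these libraries. NUDT21 itself was listed at 160.67 and 152.20 TPM for control and 162.09 and 156.60 TPM for KO+OE, so its RNA, which the construct can supply, did not tell the groups apart (limma difference 0.027 on the log2 scale, adjusted p = 0.980). All 8 markers of pluripotent stem cells, among them POU5F1 and LIN28A, were above 1 TPM, and their summed level was 3315 and 3308 TPM for control and 3281 and 3300 TPM for KO+OE. Of the trophoblast markers 2 of 10 had a mean above 1 TPM, KRT7 and HLA-G, with CGA listed at 0. The list summed to 19.81 and 21.92 TPM in control against 21.70 and 24.64 TPM in KO+OE. Most of this sum was KRT7, at 17.32 and 18.22 TPM for control and 18.24 and 20.61 TPM for KO+OE. The groups thus did not overlap for KRT7 (limma, adjusted p = 0.942), while they did for HLA-G. Both KO+OE libraries were above both control libraries for 14.5% of all genes tested, and the separation of KRT7 rests on 18.24 against 18.22 TPM. Of the neural markers 1 of 8 had a mean above 1 TPM, TUBB3, and the sums lay between 94.78 and 96.29 TPM. TUBB3 was measured at 95.66 and 95.13 TPM for control, while KO+OE gave 94.81 and 93.39 TPM (limma, adjusted p = 0.987). Its KO+OE libraries were both below control, as were 19.6% of all genes tested.

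**Figure D1:**
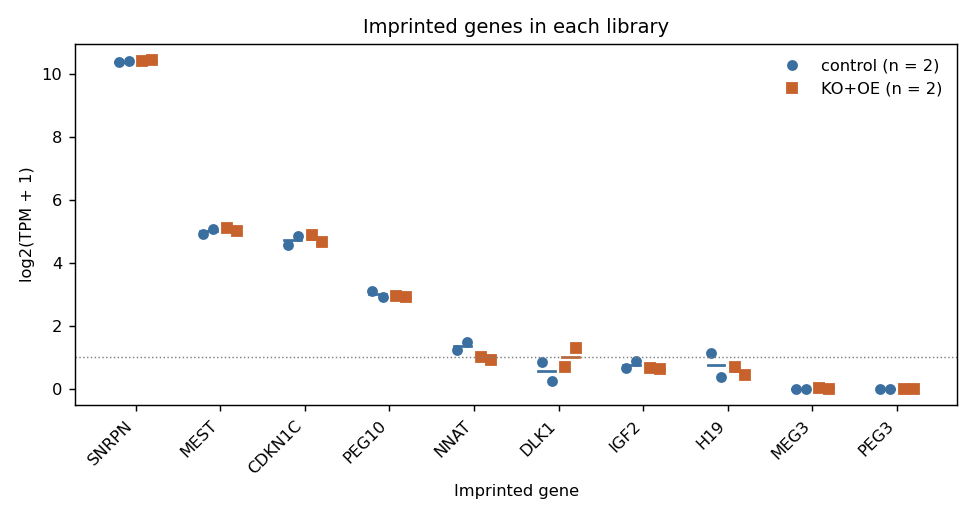
Level of each imprinted gene on the log2(TPM + 1) scale (y axis) in each library (control, circles; KO+OE, squares), with short lines at the group means and a dotted line at 1 TPM. SNRPN stood far above the other genes, 5 genes had means under 1 TPM, and among these the points of H19 and DLK1 lie furthest apart.

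The levels of the 10 genes ran from among the highest in the table down to 0. SNRPN was measured at 1345.15 and 1360.93 TPM for control, while KO+OE gave 1374.80 and 1393.53 TPM. By its mean of 1369 TPM it ranked 107th of the 60671 genes, and it made up 95.03% to 95.51% of the summed TPM of the 10 genes. Next came MEST with a mean of 31.9 TPM, CDKN1C with 26.0 TPM, PEG10 with 6.90 TPM and NNAT with 1.26 TPM over the 4 libraries. The mean of SNRPN was 42.9 times that of MEST. DLK1 (0.783 TPM), IGF2 (0.638 TPM) and H19 (0.618 TPM) had means under 1 TPM, MEG3 reached 0.03 TPM in 1 library and PEG3 was listed at 0 in all 4. Each of SNRPN, MEST, CDKN1C and PEG10 lay above the next gene in every library, although the lowest value of MEST, 29.53 TPM, was close to the highest of CDKN1C, 28.75 TPM. The ranges of NNAT and DLK1, of DLK1 and IGF2, and of IGF2 and H19 overlapped, so neighbours in this order could not be told apart, while NNAT lay above IGF2 and H19 in each library. Of the 7 paternally expressed genes 4 reached a mean of 1 TPM, and of the 3 maternally expressed genes 1 had.

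In the comparison of the groups, none of the 10 genes was called. The test was limma on log2(TPM + 1) over genes whose mean reached 1 TPM, which left 5 of the 10. In bulk RNA fewer cells with a transcript and less of it per cell cannot be told apart. At an adjusted p under 0.05, 0 of the 5 passed, against 0.00812% of the 12319 genes tested, and at an unadjusted p under 0.05 0 of the 5 passed, against 5.33% of all genes. The groups did not overlap for 2 of the 5, SNRPN and NNAT, beside 34.1% of all genes tested, so this count was near the background. The median difference of the 5, KO+OE minus control, was 0.033 on the log2 scale, beside -0.012 over all genes tested. That median was -0.029 without control replicate 1 and -0.068 without KO+OE replicate 1, so its sign rested on single libraries.

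**Figure D2:**
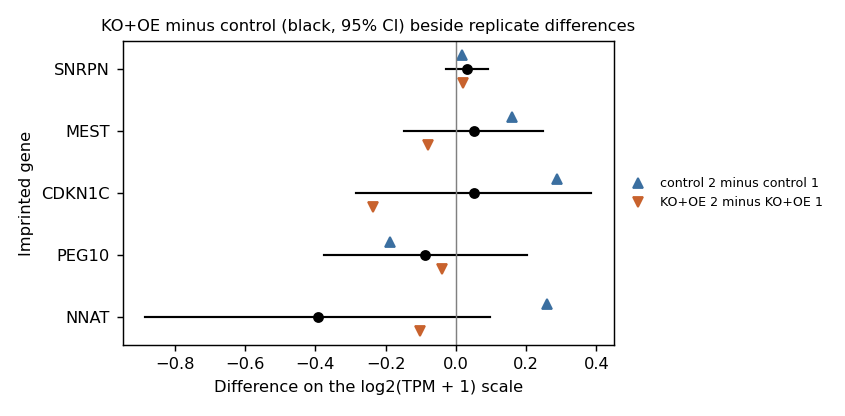
Difference between KO+OE and control on the log2(TPM + 1) scale (x axis) for the 5 imprinted genes tested, as black points with limma's 95% confidence interval, beside the difference between the 2 replicates of control (up triangles) and of KO+OE (down triangles). All 5 intervals include 0, and the interval is narrowest for SNRPN and widest for NNAT.

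SNRPN encodes SmN, a core protein of spliceosomal small nuclear ribonucleoproteins, and its locus holds the control region of the Prader-Willi and Angelman domain. It was 1353 ± 11.2 TPM in control cells against 1384 ± 13.2 TPM in KO+OE cells (SD, n = 2 each), which is 2.30% higher. Both KO+OE libraries were above both control libraries, as were 14.5% of all genes tested. The difference was 0.033 on the log2(TPM + 1) scale, with a 95% confidence interval of -0.027 to 0.093 (limma, adjusted p = 0.942). As a fold of TPM + 1 the interval runs from 0.981 to 1.07, the narrowest of the 5 genes. Leaving out any 1 library kept the difference between 0.023 and 0.043.

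SNRPN has a close paralog, SNRPB, which encodes SmB and SmB′, and reads may be shared between the coding regions of the pair. SNRPB was measured at 712.90 and 684.19 TPM for control, while KO+OE gave 684.98 and 647.67 TPM. The ratio of SNRPN to SNRPB was 1.89 and 1.99 in control and 2.01 and 2.15 in KO+OE. The sum of the pair was 2058 and 2045 TPM for control and 2060 and 2041 TPM for KO+OE, so the groups overlapped in the sum while they did not in SNRPN alone. The limma difference of SNRPB was -0.068 with an interval of -0.17 to 0.034 (adjusted p = 0.938). SNRPB was picked with its values in view, and the part of shared reads in either value was not tested.

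**Figure D3:**
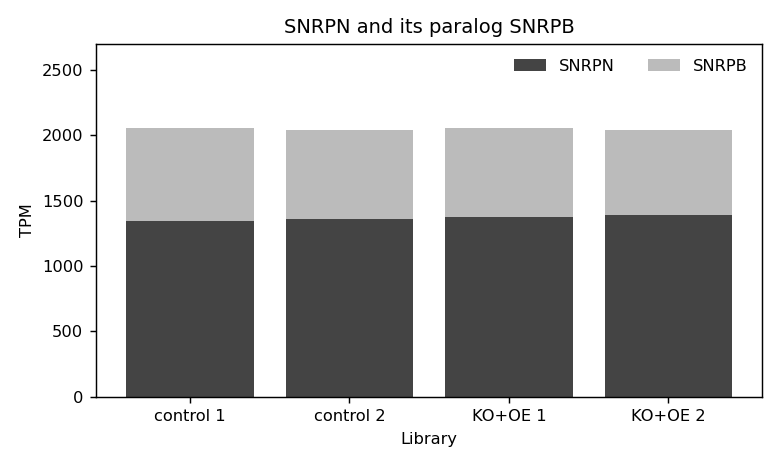
TPM (y axis) of SNRPN (dark) and its paralog SNRPB (light), stacked, in each of the 4 libraries. The height of the stack stays between 2041 and 2060 TPM, while SNRPN ranges from 1345.15 TPM in control 1 to 1393.53 TPM in KO+OE 2.

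Other genes of the SNRPN domain were also transcribed, at lower levels. SNURF, whose short reading frame lies at the 5′ end of the SNRPN transcript, was measured at 13.56 and 19.64 TPM for control, while KO+OE gave 19.87 and 12.94 TPM. SNRPN exceeded SNURF by 69.2 to 108 times, and because the pair shares a transcript the division of reads between them is uncertain. SNHG14, the long host transcript of the snoRNA clusters downstream of SNRPN, was between 16.42 and 18.30 TPM. NDN, the gene for necdin, was between 17.75 and 19.76 TPM and MAGEL2, a related MAGE family gene, between 2.30 and 2.76 TPM in the 4 libraries. In contrast MKRN3 and NPAP1, further members of the domain, did not exceed 0.05 TPM. UBE3A, the ubiquitin ligase gene of Angelman syndrome, was measured at 2.93 and 1.70 TPM for control, while KO+OE gave 2.15 and 3.93 TPM. In all, 7 of the 10 genes followed in this domain reached a mean of 1 TPM, and the groups overlapped for each of the 6 other than SNRPN.

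MEST encodes a protein of the alpha/beta hydrolase family and was named for its transcription in mesoderm. It was measured at 29.53 and 33.09 TPM for control, while KO+OE gave 33.36 and 31.49 TPM. The groups overlapped, and control replicate 1 was the lowest library. The limma difference was 0.051 with an interval of -0.15 to 0.25 (adjusted p = 0.976), and it became -0.029 without control replicate 1 and 0.13 without control replicate 2. MESTIT1, an antisense RNA from the MEST promoter, did not exceed 0.05 TPM, CPA4 and KLF14 were listed at 0 in all libraries, and COPG2, the coatomer gene next to MEST, was between 22.87 and 26.04 TPM.

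PEG10 derives from a retrotransposon and encodes Gag- and Pol-like proteins with a role in the placenta. It was measured at 7.67 and 6.62 TPM for control, while KO+OE gave 6.76 and 6.55 TPM. Control replicate 1 was the highest library, and the other 3 lay close together. The limma difference was -0.087 with an interval of -0.37 to 0.20 (adjusted p = 0.968), and it moved to 0.0065 when control replicate 1 was left out and to -0.18 without control replicate 2. SGCE, the gene for epsilon-sarcoglycan that shares the promoter region of PEG10 and is read in the opposite direction, was between 2.48 and 3.51 TPM. The ratio of PEG10 to SGCE was 2.19 and 2.67 in control and 2.40 and 2.38 in KO+OE.

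NNAT encodes neuronatin, a small membrane proteolipid, and lies inside an intron of BLCAP. It was measured at 1.34 and 1.80 TPM for control, while KO+OE gave 1.02 and 0.88 TPM. Both KO+OE libraries were below both control libraries, as were 19.6% of all genes tested. The difference was -0.39 on the log2(TPM + 1) scale, the largest of the 5 tested genes in size, with an interval of -0.89 to 0.098 (limma, unadjusted p = 0.0949, adjusted p = 0.931). The control replicates alone differed by 0.26 on this scale. As a fold of TPM + 1 the interval runs from 0.541 to 1.07, so it holds both a marked fall and a slight rise. Leaving out control replicate 1 gave -0.52, and leaving out control replicate 2 gave -0.26. BLCAP was between 18.81 and 20.03 TPM, with overlapping groups. Summed markers of mesenchymal cells (78.81 and 79.98 TPM for control, 77.28 and 76.83 TPM for KO+OE) were also lower in both KO+OE libraries. So were those of endoderm and liver (9.32 and 9.64 TPM against 6.02 and 9.26 TPM), though 9.26 TPM was close to 9.32 TPM. The sum of the pluripotent stem cell markers was lower in both KO+OE libraries too (3315 and 3308 TPM against 3281 and 3300 TPM). Of its 8 genes 1, DNMT3B, lay below without overlap and 1, LIN28A, above. The direction was thus not particular to markers of differentiated cells, and the trophoblast and neural sums overlapped between the groups. Gene by gene, both KO+OE libraries lay below both control libraries for 1 of 4 tested mesenchymal markers, ACTA2. For endoderm and liver 0 of 2 did, beside 19.6% of all genes tested. By limma difference 3 of the 4 mesenchymal markers were lower and 1, COL1A2, was higher. The part of these markers in the NNAT values was not tested. Of the mesenchymal markers 4 of 8 reached a mean of 1 TPM and LUM was listed at 0, and of the endoderm and liver markers 2 of 7 did, while SOX17, ALB and TTR were listed at 0 in all libraries.

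CDKN1C encodes p57, an inhibitor of cyclin-dependent kinases that restrains growth. It was measured at 22.96 and 28.23 TPM for control, while KO+OE gave 28.75 and 24.25 TPM. Each group held a low and a high library, and the libraries stood in the same order as for MEST, with control replicate 1 lowest and KO+OE replicate 1 highest. The limma difference was 0.051 with an interval of -0.28 to 0.39 (adjusted p = 0.988), and as a fold of TPM + 1 the interval runs from 0.821 to 1.31. The difference was -0.093 without control replicate 1, 0.19 without control replicate 2 and -0.068 without KO+OE replicate 1. Its neighbours SLC22A18 (9.89 and 12.96 TPM for control, 12.56 and 10.43 TPM for KO+OE) and KCNQ1 (6.74 to 8.57 TPM) overlapped between the groups. PHLDA2, a growth-restraining gene of the placenta in the same domain, was 29.5 ± 1.41 TPM in control cells against 26.4 ± 1.05 TPM in KO+OE cells (SD, n = 2 each), without overlap and with an adjusted p = 0.931 from limma. KCNQ1OT1, the long noncoding RNA that silences this domain on the paternal copy, did not exceed 0.02 TPM.

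The other 5 genes, with means below 1 TPM, were outside the test above. IGF2, the gene for a fetal growth factor, was measured at 0.57 and 0.87 TPM for control, while KO+OE gave 0.57 and 0.54 TPM. H19, the maternal noncoding RNA that shares enhancers and a control region with IGF2, was measured at 1.2 and 0.30 TPM for control, while KO+OE gave 0.61 and 0.36 TPM. For H19 the spread within control covered both KO+OE libraries. Its plain difference of group means on the log2(TPM + 1) scale came to -0.57 without control replicate 2 but to 0.19 without control replicate 1. INS and the INS-IGF2 readthrough were listed at 0 in all libraries, as was MIR675, the microRNA cut from H19, whose mature form poly(A) selection does not capture. IGF2-AS, antisense to IGF2, did not exceed 0.03 TPM. All 4 genes followed in the IGF2-H19 domain had means under 1 TPM, in contrast to 4 of the 5 in the CDKN1C domain on the same chromosome, whose means reached 1 TPM.

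DLK1, a transmembrane protein related to Notch ligands, was measured at 0.82 and 0.20 TPM for control, while KO+OE gave 0.63 and 1.48 TPM. KO+OE replicate 2 was the highest, control replicate 2 the lowest, and the groups overlapped. MEG3, the maternal noncoding RNA of the same domain, was above 0 in 1 library, KO+OE replicate 1, with 0.03 TPM. The other genes followed there, RTL1, MEG8, MEG9 and DIO3, had a highest value of 0.34 TPM, and all 6 genes of the domain had means under 1 TPM. PEG3, a zinc finger gene, was listed at 0 in all 4 libraries, as were ZIM2, which shares its first exons, and the noncoding RNA MIMT1. A listed 0 is not taken as absence, since the depth is unknown. Fitted without the filter on low values, the limma differences on the log2 scale were -0.14 for IGF2 (95% confidence interval -0.57 to 0.29), -0.19 for H19 (-1.06 to 0.67) and 0.44 for DLK1 (-0.49 to 1.38). Their adjusted p-values ran from 0.873 to 0.912, and the intervals are wide enough to hold large changes of H19 and DLK1 in either direction.

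**Figure D4:**
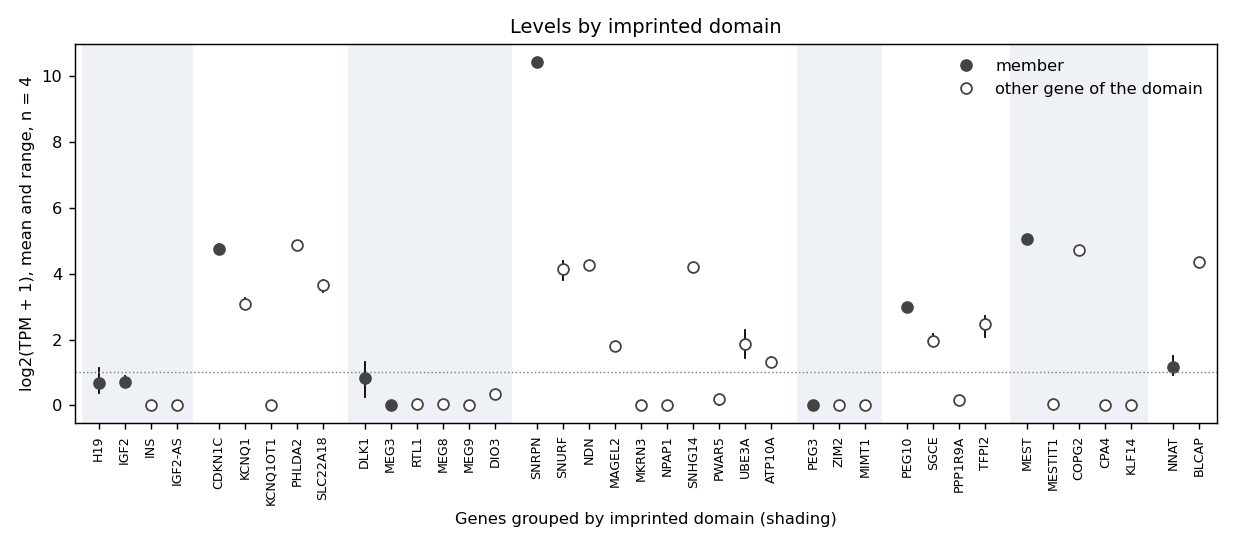
Mean level on the log2(TPM + 1) scale (y axis) with the range over the 4 libraries for the imprinted genes (filled) and the other genes of their domains (open), grouped by domain with alternating shading; the dotted line is 1 TPM. The IGF2-H19, DLK1-MEG3 and PEG3 domains have no gene whose mean reaches 1 TPM, while 7 of 10 genes in the SNRPN domain do.

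The gap between replicates differed among the 5 tested genes and followed their level only in part. SNRPN, the highest in level, had the smallest gap in both groups, but CDKN1C and not NNAT, the lowest in level, had the largest. Over all genes tested the median difference between control replicates on the log2 scale was 0.189 for means of 1 to 5 TPM, 0.102 for 5 to 50 TPM and 0.0443 above that. In control the gap was 0.017 for SNRPN, below the median of genes of its level, and 0.16 for MEST, 0.29 for CDKN1C, 0.19 for PEG10 and 0.26 for NNAT, each above it. In KO+OE the medians were 0.182, 0.101 and 0.0490. There the gap of CDKN1C, 0.24, was above the median of its level, while those of SNRPN (0.020), MEST (0.081), PEG10 (0.040) and NNAT (0.10) were below.

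**Figure D5:**
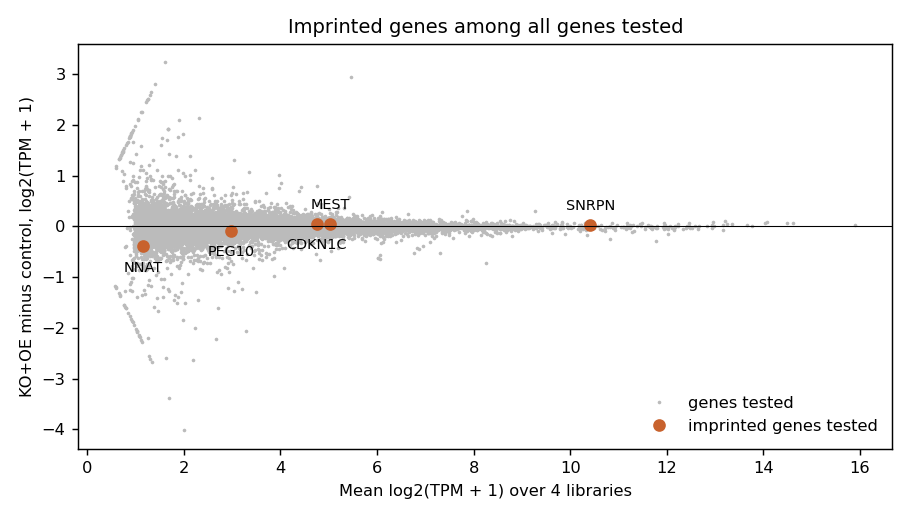
Difference between KO+OE and control (y axis, log2(TPM + 1) scale) against mean level (x axis, log2(TPM + 1) scale) for the 12319 genes tested (grey), with the 5 imprinted genes tested marked. NNAT, the lowest of the marked genes in level, stood at -0.39 and SNRPN, the highest in level, at 0.033, while MEST and CDKN1C stood at 0.051. The marked genes lie within the spread of genes of like level.

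Over the domains, 32 further genes had been listed and 29 were found by symbol in the table. Of these 13 were tested, and none passed an adjusted or an unadjusted p of 0.05 by limma. Their differences ran from -0.28 for TFPI2, a protease inhibitor, to 0.27 for UBE3A, with a median of -0.018, 6 higher and 7 lower. The groups did not overlap for 1 of the 13, PHLDA2, beside 34.1% of all genes tested. A further 16 imprinted genes of other domains gave 9 tested genes, of which 0 passed either threshold, with a median of -0.087, 2 higher and 7 lower. Both KO+OE libraries lay below both control libraries for 4 of the 9, GRB10, GNAS-AS1, INPP5F and FAM50B, and above them for 0, beside 19.6% and 14.5% of all genes tested. FAM50B, picked with its values in view, was measured at 3.34 and 3.34 TPM for control, while KO+OE gave 2.64 and 3.32 TPM. Its separation therefore rests on 3.32 against 3.34 TPM. Among them GNAS, the gene for the stimulatory G protein alpha subunit, was 631 ± 10.4 TPM in control cells against 622 ± 3.11 TPM in KO+OE cells (SD, n = 2 each). NLRP2, a NOD-like receptor family gene, was between 54.08 and 56.68 TPM, and GRB10, an adaptor that restrains insulin and IGF signalling, between 30.91 and 34.54 TPM. GNAS-AS1 was between 8.17 and 9.64 TPM, but it is antisense to GNAS, and whether reads were counted by strand is not given in the sources used here. ZNF331, a zinc finger gene, was between 4.38 and 5.69 TPM. INPP5F, an inositol phosphatase gene, was measured at 4.90 and 5.73 TPM for control, while KO+OE gave 4.11 and 4.05 TPM, a difference of -0.31 with an interval of -0.63 to 0.012 (limma, unadjusted p = 0.056, adjusted p = 0.931).

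The factors that keep imprints were listed at unequal levels. ZNF445, SMCHD1 and DPPA3 had means under 1 TPM (0.568, 0.895 and 0.065 TPM) and were not tested. DPPA3 was listed at 0 in control replicate 2 and KO+OE replicate 1. TRIM28, the corepressor that ZFP57 and ZNF445 recruit, was measured at 1057.37 and 1065.53 TPM for control, while KO+OE gave 1083.97 and 1126.59 TPM, a difference of 0.058 with an interval of -0.016 to 0.13 (limma, adjusted p = 0.931). ZFP57 was measured at 1.34 and 1.44 TPM for control, while KO+OE gave 0.75 and 1.13 TPM, and its groups did not overlap. Its difference was -0.31 with an interval of -0.81 to 0.20 (limma, adjusted p = 0.938). DNMT1, the maintenance methyltransferase, was between 35.85 and 39.20 TPM, SETDB1, a histone methyltransferase, between 14.43 and 19.15 TPM, CTCF, the insulator protein bound at the H19 control region, between 10.73 and 11.22 TPM, and UHRF1, the partner of DNMT1, between 1.03 and 1.80 TPM. Of the 9 factors 6 were tested and 0 passed an adjusted or unadjusted p of 0.05, with a median difference of 0.052. The groups did not overlap for 3 of the 6, ZFP57 below and TRIM28 and CTCF above control, beside 34.1% of all genes tested.

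While IGF2 stayed under 1 TPM, other parts of the IGF pathway were well expressed. IGFBP2 and IGFBP4, secreted proteins that bind IGFs, were 416 ± 2.59 and 180 ± 6.09 TPM for control, beside 427 ± 12.2 and 182 ± 1.25 TPM for KO+OE (SD, n = 2 each). IGF2BP1 and IGF2BP2, which bind IGF2 and other mRNAs, were between 20.17 and 23.03 TPM. IGF2R, itself the clearance receptor of IGF2, was between 7.62 and 9.22 TPM, and IGFBP6, which prefers IGF2, was measured at 10.59 and 7.19 TPM for control, while KO+OE gave 9.83 and 7.01 TPM. The receptor IGF1R was between 5.69 and 6.75 TPM and the insulin receptor INSR between 1.43 and 3.15 TPM. IGFBP5 and PAPPA had means under 1 TPM, and IGF1 and IGFBP1 were listed at 0 in all libraries. Of 15 genes 11 were tested, 0 passed an adjusted or unadjusted p of 0.05, and their median difference was -0.0096. The groups did not overlap for 1 of the 11, IGFBP2, which was higher in KO+OE, beside 34.1% of all genes tested.

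The transcripts of the 10 genes differed in base composition. In the canonical transcripts of GENCODE release 44, GC content ran from 43.5% for PEG3 and 46.2% for MEST to 60.5% for IGF2 and 62.9% for CDKN1C, beside a median of 51.8% over the genes tested. SNRPN stood at 50.9%. The Spearman correlation between level and GC content over 12147 tested genes, which share the same 4 libraries, was 0.275. By the root mean square distance of log2(TPM + 1) over the 4 libraries, the genes nearest to SNRPN in level were the ribosomal protein genes RPL23 (0.023), RPS7 (0.057) and RPS6 (0.063). Those nearest to NNAT were ZNF641 (0.058), AC126177.6 (0.064) and LRIF1 (0.066).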

How the data were processed

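RNA was measured in 4 libraries, 2 per group, grouped and numbered by their titles. Per the labels the submitters named HISAT2, featureCounts of Subread, DESeq2 and hg38, without versions, and the annotation release is not given in the sources used here. The authors deposited 1 column per library with no unit in the header. The deposited values are read as TPM, because they hold decimals and each column sums to nearly the same total. The table has 0 other per-sample columns.

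Genes whose mean reached 1 TPM were compared on log2(TPM + 1) with limma 3.58.1 in R 4.3.3 (group as the only term, eBayes with a mean-dependent prior, two-sided, Benjamini-Hochberg over all 12319 genes). A fold on this scale understates the change of low genes. No count test was used, since the values are not counts. The step was tested on data simulated from the fitted spread, with added shifts larger than any difference among the members tested. The shifted genes had levels above that of NNAT, so the simulation cannot tell how well small differences or those of low genes are found. As alternatives, the pseudocount was set to 0.1 and to 5, the filter was dropped or raised to 5 TPM, and the fit was repeated with median-ratio and quantile scaling, rescaling without mitochondrial genes, no mean-dependent prior, a replicate block and leaving out each library.

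The members and lists were chosen with earlier results of these data known. Named are the members, NUDT21 and the 6 highest genes of each list other than the lists of cell type markers. Also named are any gene of those lists with an unadjusted p under 0.05 and the 3 genes nearest to the highest member and to the one with the largest difference. The marker lists are given as sums and counts, with single genes named. SNRPB, other genes of the domains, single markers and further genes of the other lists were picked with their values in view. Positions and start-site sequences came from RefSeq on GRCh38.p14 by symbol, transcript lengths and GC content from GENCODE 44 on GRCh37 by Ensembl identifier. Tables were handled with Python 3.11.15 and pandas 2.3.3.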

Additional observations from a re-analysis of the deposited data

How the results depend on the processing

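No member passed an adjusted p of 0.05 under any of the 13 alternatives, where the smallest adjusted p of a member was 0.852, and the 4 other lists also gave 0 calls under each. Without the mean-dependent prior 1 member, NNAT, had an unadjusted p under 0.05. So did 1 of the other imprinted genes under that setting, with a pseudocount of 0.1 and with no filter, and 1 maintenance factor without KO+OE replicate 1. NNAT kept its sign throughout, at -0.66 with 0.1 and -0.14 with 5 added to the TPM values. Over all genes 1 call was made at an adjusted p of 0.05, and 0 with pseudocounts of 0.1 and 5, no filter, the filter at 5 TPM, quantile normalization and the replicate block, and the number of calls ran from 0 to 1 when 1 library was left out; the causes were not tested. Before adjustment 656 genes passed 0.05, and those settings gave, in that order, 670, 634, 1314, 412, 649 and 673 genes.

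Leaving out 1 library, with the lone library assumed to vary like the other group, moved the median difference of the members from -0.068 to 0.041. The differences ran from -0.18 to 0.0065 for PEG10, from -0.029 to 0.13 for MEST and from -0.093 to 0.19 for CDKN1C, whose signs turned. Replicate numbers did not pair the libraries, with a correlation of deviations of -0.0485, and with the replicate block 0 genes and 0 members passed. Depth is unknown, and each group had 2 libraries.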
